A study of Mus musculus with 6 samples.

Results

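Replication-dependent histone genes were examined in 3 endothelial lines of the mouse whose stated source is embryonic stem cells. They were taken as the probe sets annotated to a single gene symbol of the H2ac, H2bc, H3c or H4c series or to H1f1 to H1f5, and 26 of 19936 genes on the array met this rule: 4 H1, 4 H2A, 9 H2B, 3 H3 and 6 H4 genes. Where a gene has several probe sets the rule takes the one with the highest mean over the 6 arrays, but each of the 26 had 1, so no probe set had to be chosen by its mean signal. The line labelled VE+N expresses VE-cadherin and N-cadherin, the line labelled VE expresses VE-cadherin and the line labelled N expresses N-cadherin, per the labels. Cells of every line were kept dense for 72 h and then held without serum, in 1% albumin, for 18 to 20 h, and 2 arrays were hybridised per line. Each cadherin state is 1 cell line, so what belongs to the cadherin and what belongs to the line cannot be told apart. The titles call the arrays of a line biological replicates but do not say what was separate, and p-values measure only the spread between such arrays.

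Core histones H2A, H2B, H3 and H4 form the protein spool around which DNA is wrapped, and H1 binds the DNA between spools. The genes studied here lie in clusters of many copies and are known to be transcribed mainly in S phase, when new DNA needs new histones. Their mRNAs end in a stem-loop rather than a poly(A) tail, and the stem-loop is bound by the protein made by Slbp. A second class, the replication-independent histone genes, is mostly made through the cell cycle from polyadenylated mRNAs. Because many copies encode nearly the same protein from nearly the same sequence, a probe set named for 1 copy may also take signal from others.

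Promoter sequences are shown for the copies with the largest differences (H1f1, H2ac4 and H2bc3), for H1f2, whose order of lines differed from that of H1f1, and for 2 pairs of neighbours that are transcribed away from each other, H2ac8 with H2bc8 and H2bc1 with H2ac1. Sequences are from RefSeq (GRCm38.p6), 5′ to 3′, with capitals marking matches on either strand to the CCAAT box (CCAAT), the TATA box (TATAAA), the octamer known from H2B promoters (ATTTGCAT) and the letters AAACACA known from H1 promoters. Each of the first 4 windows is the 250 bases before the start of the gene: chr13:23763418-23763667 (+ strand), chr13:23738557-23738806 (+ strand), chr13:23750838-23751087 (+ strand) and chr13:23746484-23746733 (+ strand). Each of the others is the whole stretch between the starts of the pair, at chr13:23571221-23571399 (+ strand) and chr13:23934157-23934436 (+ strand).
H1f1: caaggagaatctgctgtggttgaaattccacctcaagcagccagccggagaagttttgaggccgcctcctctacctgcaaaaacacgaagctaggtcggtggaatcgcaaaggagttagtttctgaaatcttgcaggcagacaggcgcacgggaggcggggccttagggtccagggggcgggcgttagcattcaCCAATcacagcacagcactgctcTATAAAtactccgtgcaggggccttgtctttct
H1f2: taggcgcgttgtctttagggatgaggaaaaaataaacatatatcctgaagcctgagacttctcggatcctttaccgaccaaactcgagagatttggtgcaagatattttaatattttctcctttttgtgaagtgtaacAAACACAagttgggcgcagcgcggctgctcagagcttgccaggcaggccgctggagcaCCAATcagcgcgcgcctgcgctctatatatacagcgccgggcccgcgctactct
H2ac4: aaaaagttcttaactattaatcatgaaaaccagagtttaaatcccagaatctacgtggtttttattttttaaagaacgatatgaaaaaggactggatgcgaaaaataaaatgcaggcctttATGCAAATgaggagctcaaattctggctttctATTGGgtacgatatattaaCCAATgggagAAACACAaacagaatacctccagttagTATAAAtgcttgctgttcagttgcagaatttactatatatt
H2bc3: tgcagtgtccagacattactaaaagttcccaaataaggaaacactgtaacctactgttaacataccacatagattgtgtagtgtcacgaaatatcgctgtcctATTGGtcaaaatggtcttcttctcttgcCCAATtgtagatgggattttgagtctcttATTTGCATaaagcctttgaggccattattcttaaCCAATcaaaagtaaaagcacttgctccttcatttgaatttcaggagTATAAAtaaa
H2ac8 and H2bc8: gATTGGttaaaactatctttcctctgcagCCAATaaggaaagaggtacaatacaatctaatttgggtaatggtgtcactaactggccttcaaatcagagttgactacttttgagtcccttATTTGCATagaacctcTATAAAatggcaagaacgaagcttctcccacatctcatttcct
H2bc1 and H2ac1: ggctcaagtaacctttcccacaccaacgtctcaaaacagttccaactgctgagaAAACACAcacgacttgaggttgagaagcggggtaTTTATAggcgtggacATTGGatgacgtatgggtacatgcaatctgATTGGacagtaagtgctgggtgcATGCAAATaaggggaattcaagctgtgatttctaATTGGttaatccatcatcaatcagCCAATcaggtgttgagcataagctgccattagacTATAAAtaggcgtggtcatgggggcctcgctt

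Of the 26 genes 22 had a promoter in the RefSeq table. CCAAT was found in the 250 bases before the start in 18 of the 22, against 33.8% of all 32851 promoters, and TATAAA in 14, against 12.4%. The octamer letters ATTTGCAT were in 3 of 4 H2A and 5 of 7 H2B promoters and in 0 of 4 H1, 0 of 2 H3 and 0 of 5 H4 promoters, against 1.60% of all promoters. AAACACA was in 3 of 4 H1 promoters, among them H1f2 but not H1f1, and in 4 H2A or H2B promoters, against 6.25% of all. None of these letter motifs overlaps another in the windows shown, the paired genes share most of their windows, and a match of letters is not a binding site.

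The labels were checked on the cadherin genes. Cdh2, which encodes N-cadherin, averaged 6.69 ± 0.0105 log2 units (SD, n = 2) in VE+N, 5.86 ± 0.0933 in VE and 7.67 ± 0.0120 in N. Cdh5, which encodes VE-cadherin, averaged 7.10 ± 0.0832 in VE+N, 6.94 ± 0.156 in VE and 7.28 ± 0.0254 in N, and no difference between lines was called (adjusted p = 0.0917 to 0.462), so this probe set does not set the lines apart as the labels do. All directions below rest on the labels. All 12 endothelial markers lay above the median gene of the array and 0 of 8 embryonic stem cell markers did. The summed linear signal of 8 mesenchymal markers was 251 to 305 in VE+N, 2946 to 3233 in VE and 630 to 669 in N. In bulk RNA, fewer cells of a type and less RNA per cell cannot be told apart.

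Histone copies were higher in both lines labelled with VE-cadherin than in the N line. In VE against N, 19 of the 26 were called higher and 0 lower (limma, adjusted p below 0.05; at an unadjusted p the counts were 22 and 0, and with the methods' analysis of variance after Benjamini-Hochberg adjustment 6 and 0), where 8.46% of all genes were called higher and 6.99% lower. In VE+N against N, 18 were called higher and 0 lower (21 and 0 unadjusted, 5 and 0 by analysis of variance), where 10.2% of all genes were called higher and 8.91% lower. The median log2 difference over the 26 copies was 0.95 in VE minus N and 0.65 in VE+N minus N, while that over all genes was -0.02 and 0.00. Both comparisons use the same N arrays. In VE+N against VE, 8 copies were called lower and 0 higher (11 and 0 unadjusted, 0 and 0 by analysis of variance), where 5.84% of all genes were called lower and 4.29% higher, and the median difference was -0.21 (0.03 over all genes). At an unadjusted p, 2690 of 19936 genes were higher and 2706 lower in VE minus N. These counts were 3165 and 2882 in VE+N minus N, and 2518 and 2118 in VE+N minus VE. By analysis of variance they were 682 and 594, 960 and 907, and 118 and 193, in the same order.

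**Figure D1:**
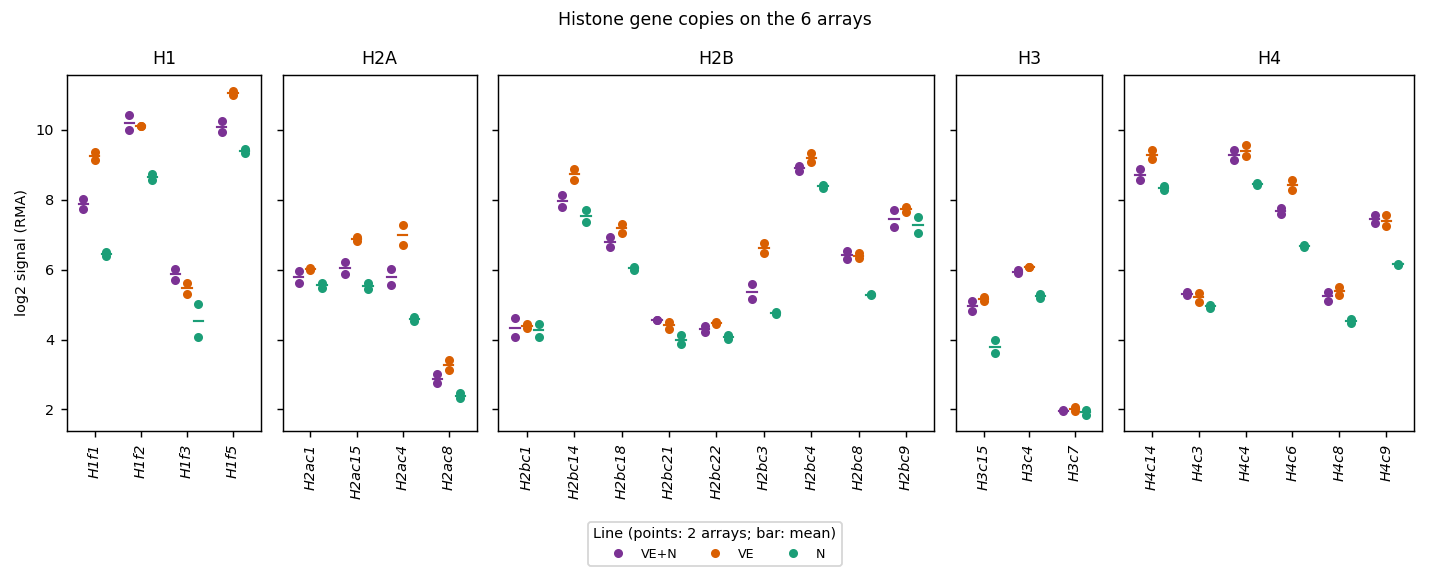
Log2 signal of the 26 histone gene copies, by family, with VE+N (left), VE (middle) and N (right) for each gene; points are the 2 arrays of a line and bars their mean. N is the lowest of the 3 line means for all 26, except that H3c7 was higher in N than in VE after median centring, and VE is the highest for 20.

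The mean of the N line was the lowest of the 3 for all 26 copies on the deposited scale, and H3c7 alone turned in VE minus N after median centring (-0.01). For 20 copies the order was VE above VE+N above N, an order that 12.2% of all genes had. For the other 6, H1f2, H1f3, H2bc8, H2bc21, H4c3 and H4c9, it was VE+N above VE above N, an order that 21.3% of all genes had. Both arrays of VE lay above both of N for 24 copies and below for 0 (26.0% and 31.2% of all genes), and both arrays of VE+N above both of N for 22 and below for 0 (27.6% and 27.5%). Both arrays of VE+N lay below both of VE for 14 copies and above for 2 (21.0% and 28.6%). Between the arrays of VE+N and of VE the copies also moved together. Replicate 1 lay above replicate 2 for 21 copies in VE+N and 24 in VE, with median gaps of 0.27 and 0.25. In N it did so for 15 of the 26, with a median gap of 0.07. The gap over all genes was 0.00 in each line. The copies are therefore not independent datapoints.

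Among the linker histone genes, which encode H1, 3 of 4 were called higher in VE than in N and all 4 in VE+N than in N. H1f1 had 8.01 and 7.74 log2 units on the VE+N arrays, 9.37 and 9.13 on the VE arrays and 6.51 and 6.39 on the N arrays. The 3 lines did not overlap, with VE highest and VE+N between. The log2 difference was 2.80 ± 0.136 (SE) in VE minus N, 6.97-fold and the largest among the 26 (adjusted p = 1.05e-05), and 1.43 ± 0.136 in VE+N minus N (adjusted p = 0.000221). H1f1 fell by 1.37 ± 0.136 in VE+N against VE (adjusted p = 0.000620).

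H1f2 gave 9.99 and 10.42 in VE+N, 10.10 and 10.10 in VE and 8.56 and 8.73 in N. Here the VE+N arrays lay on either side of the VE arrays, and both lines were above N. The difference was 1.45 ± 0.147 in VE minus N (adjusted p = 0.000403), 1.56 ± 0.147 in VE+N minus N (adjusted p = 0.000215) and 0.11 ± 0.147 in VE+N minus VE (adjusted p = 0.747). H1f5 gave 10.25 and 9.92 in VE+N, 11.11 and 10.98 in VE and 9.43 and 9.33 in N, the same order as H1f1. It was higher by 1.67 ± 0.132 in VE than in N (adjusted p = 0.000114) and by 0.71 ± 0.132 in VE+N than in N (adjusted p = 0.00732), and it fell by 0.96 ± 0.132 in VE+N against VE (adjusted p = 0.00296). The VE+N minus N call of H1f5 was lost without N replicate 2 (0.65, adjusted p = 0.0501). H1f3 gave 5.71 and 6.02 in VE+N, 5.63 and 5.30 in VE and 4.08 and 5.01 in N, and its N arrays lay far apart. It was called in VE+N minus N (1.32 ± 0.277, adjusted p = 0.0123) but not in VE minus N (0.92, adjusted p = 0.0631). Without N replicate 1 the VE+N minus N difference was 0.86 (adjusted p = 0.0251), without VE+N replicate 2 it was 1.16 and not called (adjusted p = 0.0974), and without N replicate 2 the VE minus N difference was 1.39 and was called (adjusted p = 0.00315).

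Of the H2A genes, 3 of 4 were called higher in VE and the same 3 in VE+N, each against N. H2ac4 had 6.02 and 5.57 in VE+N, 7.28 and 6.70 in VE and 4.64 and 4.54 in N, so that the lines did not overlap. It was higher by 2.40 ± 0.210 in VE than in N (5.27-fold, adjusted p = 0.000189) and was 2.30-fold higher in VE+N than in N (adjusted p = 0.00531). H2ac15 was higher by 1.35 ± 0.135 in VE (adjusted p = 0.000370) and by 0.52 ± 0.135 in VE+N (adjusted p = 0.0297), each against N. Both genes were called lower in VE+N than in VE, with ratios of 0.437 for H2ac4 and 0.564 for H2ac15 (adjusted p = 0.00952 and 0.00677). Neither of these calls held under every omission of an array, nor did the VE+N minus N call of H2ac15. H2ac8 was dim, with 3.01 and 2.75 in VE+N, 3.42 and 3.13 in VE and 2.32 and 2.47 in N. Its differences were 0.88 ± 0.141 in VE minus N (adjusted p = 0.00430) and 0.48 ± 0.141 in VE+N minus N (adjusted p = 0.0485).

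H2B was the family with the most copies, and 6 of 9 were called higher in VE and 5 of 9 in VE+N, each against N. H2bc3 had 5.59 and 5.16 in VE+N, 6.76 and 6.49 in VE and 4.72 and 4.79 in N. The lines did not overlap, and VE+N lay closer to N than to VE. The difference was 1.87 ± 0.160 in VE minus N (3.65-fold, adjusted p = 0.000169), 0.62 ± 0.160 in VE+N minus N (adjusted p = 0.0300) and -1.25 ± 0.160 in VE+N minus VE (adjusted p = 0.00209). The VE+N minus N difference of H2bc3 was 0.40 without VE+N replicate 1, 0.58 without N replicate 1 and 0.65 without N replicate 2. That call of H2bc3 did not hold in any of these 3 omissions. H2bc8 averaged 6.42 ± 0.168 in VE+N, 6.40 ± 0.0924 in VE and 5.28 ± 0.0239 in N (SD, n = 2 each). Its VE+N and VE arrays overlapped, and both lines were above N, by 1.14 ± 0.116 in VE+N (adjusted p = 0.000314) and 1.12 ± 0.116 in VE (adjusted p = 0.000455). H2bc14 was called higher in VE than in N (1.19 ± 0.172, adjusted p = 0.00253) and lower in VE+N than in VE (-0.76, adjusted p = 0.0294), while VE+N minus N was 0.43 (adjusted p = 0.134). H2bc18 was higher by 1.14 in VE and 0.74 in VE+N, and H2bc4 by 0.81 and 0.51, each against N (adjusted p = 0.000972 to 0.0215). The calls of H2bc21 in VE+N minus N (0.55, adjusted p = 0.0160) and of H2bc22 in VE minus N (0.40, adjusted p = 0.0427) were small, and both genes lay below the median gene of the array. H2bc9 was called in neither comparison with N (0.45 in VE minus N, adjusted p = 0.185).

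The pairs of neighbours shown above gave different calls. H2ac8 and H2bc8 start 179 bases apart on opposite strands, and both were called higher in VE and in VE+N than in N. The VE+N minus N call of H2ac8 was lost when any 1 of the 6 arrays was left out (adjusted p = 0.0507 to 0.235). H2ac1 and H2bc1, the copies known from testis, have 280 bases between their starts, with 2 matches to TATAAA, and neither was called in any comparison. H2bc1 had 4.62 and 4.06 in VE+N, 4.34 and 4.45 in VE and 4.45 and 4.08 in N, so the 3 lines overlapped. H2ac1 had 5.97 and 5.61 in VE+N, 6.05 and 5.98 in VE and 5.62 and 5.48 in N, with a VE minus N difference of 0.47 ± 0.137 (adjusted p = 0.0575). That difference of H2ac1 lay near the threshold: it was called without either VE+N array (adjusted p = 0.0225) and after the dimmest 25% or 50% of genes were dropped (adjusted p = 0.0386 and 0.0200), and not without any 1 of the VE or N arrays (adjusted p = 0.127 to 0.258). Of the other histone genes of testis and oocyte, 0 of 6 measured were called in any comparison (limma; 0 at an unadjusted p in each, and 0 by analysis of variance), and all 6 lay below the median gene. With 15.4% of all genes called in VE minus N, 19.1% in VE+N minus N and 10.1% between VE+N and VE, a count of 0 among 6 genes is near the background.

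**Figure D2:**
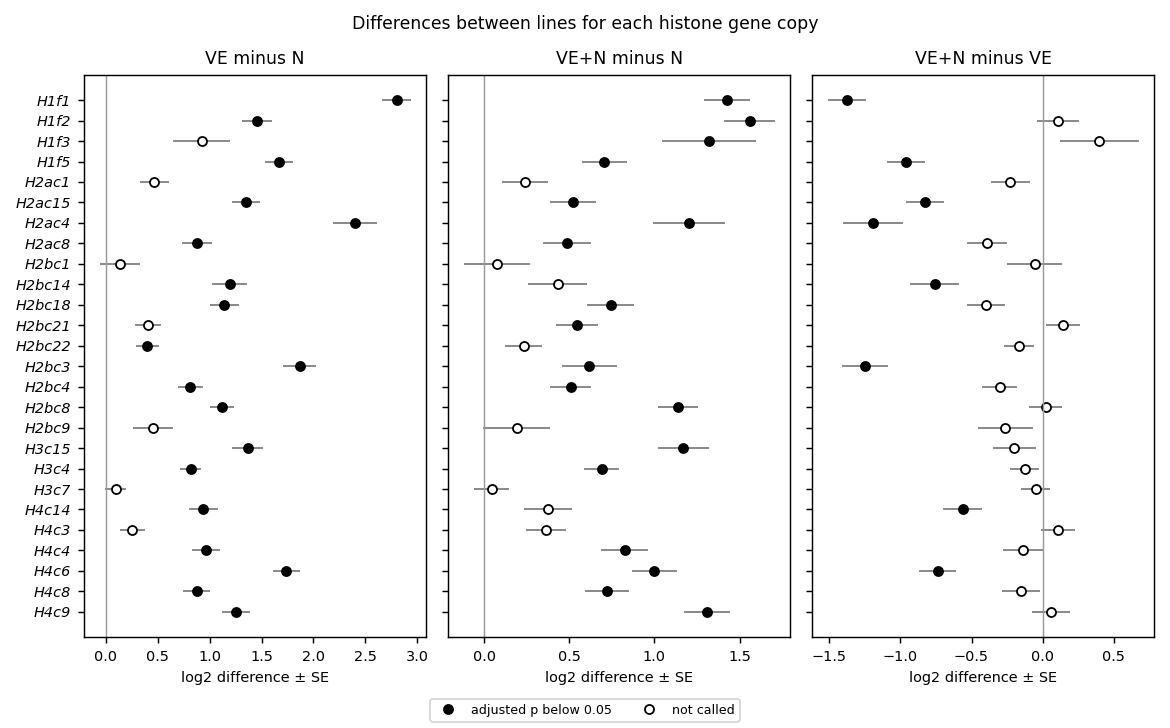
Log2 differences (points) with their SE (bars) for the 26 histone gene copies in VE minus N, in VE+N minus N and, between the others, in VE+N minus VE; filled points passed an adjusted p of 0.05. All 26 points lie above 0 in both comparisons with N (H3c7 turned in VE minus N after median centring), and the filled points in VE+N minus VE all lie below 0.

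Of the H3 genes, 2 of 3 were called higher in both VE and VE+N than in N. H3c15 had 5.11 and 4.83 in VE+N, 5.23 and 5.11 in VE and 3.97 and 3.62 in N. Its VE+N and VE arrays lay close together and both were above N, by 1.17 ± 0.149 (adjusted p = 0.00103) and 1.37 ± 0.149 (adjusted p = 0.000593). H3c4 was higher by 0.69 ± 0.101 in VE+N (adjusted p = 0.00209) and 0.82 ± 0.101 in VE (adjusted p = 0.00114), each against N. H3c7 lay between 1.85 and 2.07 on all 6 arrays, near the floor of the array, and was called in no comparison.

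The H4 genes gave 4 of 6 called higher in VE+N than in N and 5 of 6 in VE than in N. H4c6 had 7.77 and 7.59 in VE+N, 8.57 and 8.27 in VE and 6.71 and 6.65 in N, in 3 separate ranges. It was higher by 1.74 ± 0.130 in VE than in N (3.34-fold, adjusted p = 8.58e-05) and by 1.00 ± 0.130 in VE+N than in N (adjusted p = 0.00113), and it fell by 0.74 ± 0.130 in VE+N against VE (adjusted p = 0.00963). H4c9 had 7.34 and 7.57 in VE+N, 7.55 and 7.24 in VE and 6.12 and 6.17 in N. As in H1f2 and H2bc8, VE+N and VE overlapped, and the differences of H4c9 were 1.31 ± 0.134 in VE+N minus N (adjusted p = 0.000327), 1.25 ± 0.134 in VE minus N (adjusted p = 0.000539) and 0.06 ± 0.134 in VE+N minus VE (adjusted p = 0.864). H4c4 and H4c8 were higher by 0.82 and 0.72 in VE+N and by 0.96 and 0.87 in VE, each against N (adjusted p = 0.00251 to 0.00646). H4c14 was called in VE minus N (0.94, adjusted p = 0.00287) and in VE+N minus VE (-0.56, adjusted p = 0.0413), and H4c3 in no comparison.

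The calls were set against signal and checked without single arrays. Of the 17 copies whose mean lay above the median gene 15 were called in VE minus N, and of the 9 below it 4 were. In VE+N minus N the counts were 13 and 5. The mean is over all 6 arrays, so copies high in VE or VE+N pass this split more easily. H2ac4, with means of 4.59 in N and 6.99 in VE, passed the median gene of 5.54 in this way. Whether calls depend on signal therefore cannot be read from these counts. Leaving out each array in turn kept 18 of the 19 calls in VE minus N under every omission, with H2bc22 lost in 4 of them. In VE+N minus N 11 of 18 calls held under every omission: H1f1, H1f2, H2ac4, H2bc8, H2bc18, H3c4, H3c15, H4c4, H4c6, H4c8 and H4c9. In VE+N minus VE only H1f1, H1f5 and H2bc3 held under every omission. The count of copies lower in VE+N than in VE was 8 with all arrays, 3 when VE replicate 1 was left out and 4 when VE+N replicate 2 was. Copies lie on chromosome 13 (22) and chromosome 3 (4), and 15 and 3 of these were called in VE+N minus N, 16 and 3 in VE minus N.

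A further 26 probe sets are annotated to several symbols that include copies of these families, and were tested in a fit over all 35556 probe sets. These probe sets carry no gene of their own, and several hold the same or nearly the same values on all 6 arrays. They are therefore described by class, and counts of them are not counts of independent measurements. The 10 H3 probe sets, annotated to 12 symbols each, lay between 10.40 and 11.19 in VE+N, 11.14 and 11.84 in VE and 9.69 and 10.29 in N. All 10 were called higher in VE than in N, by 1.48 to 1.54, and all 10 in VE+N than in N, by 0.74 to 0.84. The 5 H4 probe sets with 11 symbols were higher by 1.11 to 1.16 in VE (5 called) and by 0.70 in VE+N (4 called). The 7 H2B probe sets with 14 or 15 symbols differed from N by 1.36 to 1.46 in VE (7 called) and by 0.67 to 0.71 in VE+N (0 called). The 2 H2A probe sets with 19 or 20 symbols differed by 0.80 to 0.84 in VE (2 called) and by 0.32 to 0.34 in VE+N (0 called). Their symbols also include H3c4 and H2ax, so this class does not hold H2A copies of the rule alone.

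Over all 26 shared probe sets, 26 were called higher in VE than in N and 16 in VE+N than in N, where 3.56% and 4.67% of all probe sets were. The remaining 2 probe sets have 2 symbols each, H4c17 with H4c11 and, across families, H2bc6 with H1f4. They differed from N by 0.85 and 0.96 in VE and by 0.87 and 1.07 in VE+N. Between VE+N and VE, 24 of the 26 were lower in VE+N and 0 were called (limma; 2.04% of all probe sets were called lower), with a lowest adjusted p of 0.0580. At an unadjusted p 24 passed, and by analysis of variance with Benjamini-Hochberg adjustment 0.

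**Figure D3:**
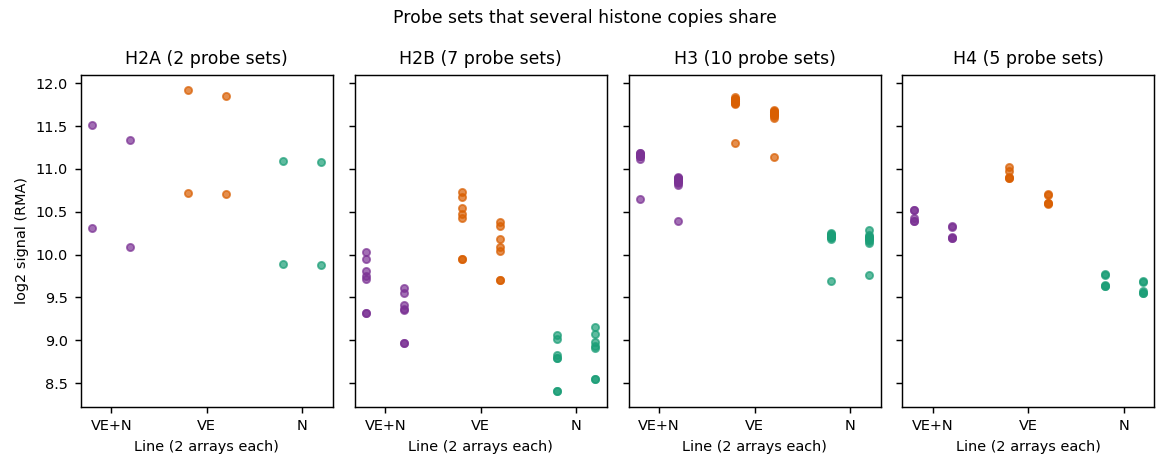
Log2 signal of the probe sets that at least 5 histone symbols share, by family, in VE+N (left), VE (middle) and N (right); each point is 1 probe set on 1 array, and the 2 columns of points in a line are its arrays. In H3, the signals span 10.40 to 11.19 in VE+N, 11.14 to 11.84 in VE and 9.69 to 10.29 in N. The 2 H2A probe sets are also annotated to H3c4.

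Cell cycle genes, which the histone copies are known to accompany, were set beside them. In VE against N both groups were higher. Of 29 measured G2 and M phase genes 29 were called higher by limma, with a median log2 difference of 1.09. Of 47 S phase genes 32 were called higher and 1 lower, with a median of 0.56. Over all genes 8.46% were called higher and 6.99% lower. By analysis of variance 17 of the 29 and 12 of the 47 were called higher. Mki67, a marker of cycling cells, rose by 1.68 ± 0.128 in VE against N (adjusted p = 9.13e-05). The primase gene Prim1 rose by 1.48 ± 0.110 and the cyclin gene Ccne2 by 1.43 ± 0.120 (adjusted p = 8.48e-05 and 0.000153).

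In VE+N against N the lists had different values. Of all genes 10.2% were called higher and 8.91% lower. Of the G2 and M phase genes 1 was called higher and 1 lower (Nusap1 at 0.46 and Ccnb2 at -0.46), with a median of -0.06. Of the S phase genes 4 were called higher and 9 lower, with a median of -0.20, beside 18 of 26 histone copies higher and a median of 0.65. Mki67 averaged 7.98 ± 0.0187 in VE+N, 9.52 ± 0.205 in VE and 7.84 ± 0.132 in N (SD, n = 2 each), so that VE+N lay near N and apart from VE. The S phase genes called higher were the nucleoside transporter gene Slc29a1 (0.99), the polymerase subunit gene Pole2 (0.84), Prim1 (0.81) and Ccne2 (0.49), and the largest fall was in Dbf4, which encodes the activator of a replication kinase (-1.10, adjusted p = 0.000168). Whether the histone copies differ from these lists beyond chance was not tested.

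In VE+N against VE, all 29 G2 and M phase genes were called lower by limma, with a median of -1.06. Of 47 S phase genes 33 were called lower and 1 higher, with a median of -0.78. By analysis of variance 7 of the 29, 5 of the 47 and 0 of the 26 histone copies were called lower. Over all genes 5.84% were called lower by limma. Of the 26 histone copies 8 were called lower by limma, with a median of -0.21. Leaving out 1 array moved that count of histone copies between 3 and 8 and that median between -0.36 and -0.08. The cyclin gene Ccne1 fell by 1.48 ± 0.172 (adjusted p = 0.00139) and Mki67 by 1.54 ± 0.128 (adjusted p = 0.000265). Of the 14 measured cell cycle inhibitors and quiescence genes, 6 were called higher and 3 lower in VE+N than in N (10.2% and 8.91% of all genes). In VE against N 6 were higher and 1 lower (8.46% and 6.99% of all genes). Among them Btg2, an antiproliferative gene, rose by 2.21 ± 0.112 in VE+N and 1.03 ± 0.112 in VE, each against N, and Cdkn2c, which encodes an inhibitor of cyclin-dependent kinases, by 1.07 and 1.27.

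**Figure D4:**
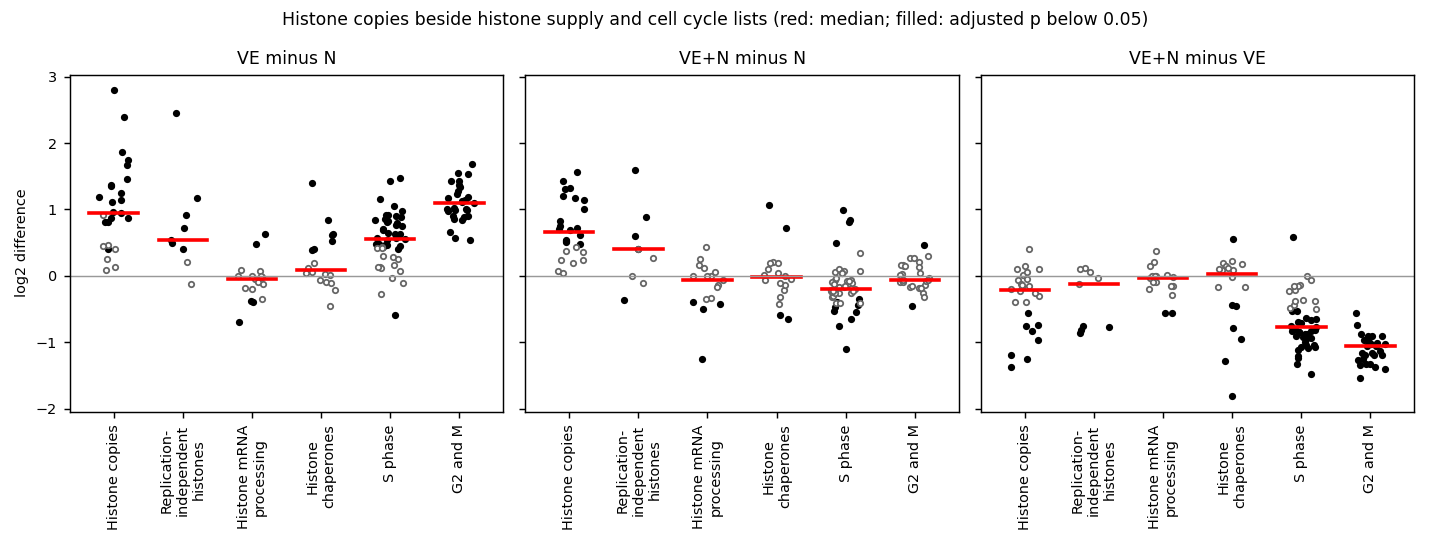
Log2 differences of the 26 histone copies and of 5 gene lists in VE minus N, in VE+N minus N and, between the others, in VE+N minus VE; each point is a gene, red bars are medians and filled points passed an adjusted p of 0.05. In VE+N minus N the median is 0.65 for the histone copies, -0.20 for S phase genes and -0.06 for G2 and M phase genes.

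Genes that process or control histone mRNA were called in both directions. Of 17 measured, 2 were called higher and 3 lower in VE than in N, and 0 higher and 4 lower in VE+N than in N (limma; 2 higher at an unadjusted p and 0 by analysis of variance), with medians of -0.04 and -0.07. Over all genes 15.4% were called in either direction in VE minus N and 19.1% in VE+N minus N. Slbp had 8.37 and 8.37 in VE+N, 8.70 and 8.63 in VE and 8.81 and 8.92 in N. Its VE+N arrays were below the others, by 0.49 ± 0.0990 against N (adjusted p = 0.0101), and VE minus N was -0.20 (adjusted p = 0.251). Npat, which encodes the coactivator of histone gene transcription, differed from N by -0.01 in VE and 0.00 in VE+N (adjusted p = 0.978 and 0.991). Casp8ap2, which encodes a component of histone locus bodies, was higher by 0.63 ± 0.163 in VE than in N (adjusted p = 0.0359). Cstf2, a cleavage factor gene, was lower by a log2 difference of -0.69 in VE and -1.25 in VE+N, each against N (adjusted p = 0.00296 and 0.000100).

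Of 18 measured histone chaperone and deposition genes, 7 were called higher and 0 lower in VE than in N by limma. At an unadjusted p 1 was lower, and by analysis of variance 0. In VE+N against N 2 were called higher and 2 lower, near the 10.2% and 8.91% of all genes. In VE+N against VE 1 was higher and 6 lower, where 4.29% and 5.84% of all genes were. In VE against N the shares of all genes were 8.46% and 6.99%. Asf1b, which hands new H3 and H4 to assembly factors, had 7.47 and 6.77 in VE+N, 9.04 and 8.82 in VE and 7.48 and 7.61 in N. It was higher in VE than in N by 1.39 ± 0.209 (adjusted p = 0.00305), and the difference in VE+N minus N was -0.43 (adjusted p = 0.222). The assembly factor gene Chaf1b was called higher in VE than in N (0.63, adjusted p = 0.00675) and lower in VE+N than in N (-0.65, adjusted p = 0.00516). Nap1l1, a chaperone gene for H2A and H2B, was called higher in both, by 0.84 and 1.07.

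Replication-independent histone genes were called higher for 7 of 9 measured in VE against N, with a median of 0.54, and for 4 of 9, with 1 lower, in VE+N against N, with a median of 0.41. Of all genes 8.46% were called higher in VE against N, and 10.2% higher and 8.91% lower in VE+N against N. H1f10, which encodes a linker histone outside the clusters, had 7.75 and 7.35 in VE+N, 8.45 and 8.38 in VE and 6.08 and 5.84 in N, the order seen in H1f1. It was higher by 2.46 ± 0.151 in VE (adjusted p = 3.17e-05) and by 1.59 ± 0.151 in VE+N (adjusted p = 0.000215), each against N. H2ax, whose product marks DNA breaks when phosphorylated, was higher by 1.17 ± 0.144 in VE than in N (adjusted p = 0.00116) and was called lower in VE+N than in VE (-0.75). Cenpa had the same calls, with differences of 0.71 and -0.82. Whether each listed gene is independent of the cell cycle was not tested. H2az1 was called lower in VE+N than in N. It had 10.16 and 9.99 in VE+N, 10.89 and 10.80 in VE and 10.44 and 10.45 in N.

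Markers of other cell types also differed between the lines, and their part in the histone differences was not tested. Of 8 mesenchymal markers 7 were called higher and 0 lower in VE than in N, and 0 higher and 3 lower in VE+N than in N (limma; 0 higher at an unadjusted p and by analysis of variance), where the histone copies were higher in both. Of 8 mural markers 0 were called higher in either comparison with N (0 unadjusted and 0 by analysis of variance). By limma 2 of the 8 were called lower in VE and 4 in VE+N, each against N. The largest fall among them was in Pdgfrb, with means of 4.19 log2 units in VE+N, 8.48 in VE and 9.04 in N. Of 7 blood markers 1 was higher and 1 lower in VE and 0 and 1 in VE+N, each against N. Summed over the list, the blood markers had a linear signal of 544 to 570 in VE+N, 1113 to 1373 in VE and 3152 to 3159 in N. Most of this sum is Cd68, a macrophage gene, with 8.62 and 8.74 log2 units in VE+N, 10.19 and 9.80 in VE and 11.55 and 11.56 in N. Runx1 was the 1 blood marker called higher in VE than in N, and Ptprc, Itgam, Spi1, Csf1r and Gata1 were called in neither comparison with N. Over all genes 8.46% were called higher and 6.99% lower in VE minus N, and 10.2% and 8.91% in VE+N minus N. A count of 0 or 1 among 7 or 8 markers is therefore near the background.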

How the data were processed

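RNA of 3 lines was hybridised to Affymetrix Mouse Gene 1.0 ST arrays, 2 a line, grouped by the line in their titles. The authors deposited log2 values, for which the submitters' processing notes name RMA and Partek 6.3. That the scale is log2 follows from RMA and the values' range. Genome build and probe positions are not given in the sources used here. Precision is limited by the number of arrays.

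Of 35556 probe sets 21789 carried 1 symbol, brought up to date by Entrez identifier (21698), accession (3) or kept (88), which gave 19936 genes. Line means were compared with limma 3.58.1 in R 4.3.3 over all 6 arrays and all genes (3 residual and 4.89 prior degrees of freedom), with Benjamini-Hochberg adjustment within each comparison and calls at adjusted p below 0.05. Values after ± are SE of a difference, or SD where stated. The analysis was tested on simulated data. The members and lists were chosen with earlier results of these data known. Any member may be named, and from each other list up to 4 called genes a comparison with the largest change. Npat was named outside this rule, after its values were seen. The blood markers Ptprc, Itgam, Spi1, Csf1r and Gata1, which were not called, were also named outside it. Over all genes, same-numbered arrays of different lines did not deviate together throughout (correlations of -0.01, 0.12 and 0.07), so replicate numbers were not used as pairs. These correlations do not look at the histone copies alone. For the copies, replicate 1 lay above replicate 2 for 21 of 26 in VE+N, 24 in VE and 15 in N. Whether the lines share a replicate effect in the copies was not tested. Alternatives were fits on 4 arrays, a replicate block, median centring, quantile normalization again, filters on dim genes, other treatments of probe sets, other priors, array weights, the methods' analysis of variance, and each array left out.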

Additional observations from a re-analysis of the deposited data

How the results depend on the processing

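Under 19 alternatives no histone copy changed direction in a comparison in which it was called, although some differences near 0 that were not called did, and 0 copies were called lower than N or higher in VE+N than in VE. Of 18 copies called in VE+N minus N, 11 held without each array in turn, and 18 of 19 in VE minus N. An array left out leaves a lone array, assumed to vary like the other lines. Without single arrays the counts called higher ran from 18 to 20 in VE minus N and from 13 to 16 in VE+N minus N, and those called lower in VE+N minus VE from 3 to 8; the median differences ran from 0.82 to 1.10, 0.54 to 0.79 and -0.36 to -0.0786. The methods' analysis of variance gave 6, 5 and 0 calls after Benjamini-Hochberg adjustment, and 12, 7 and 3 at an unadjusted p and a fold over 2. With every probe set tested, 3 copies were called lower in VE+N than in VE. Without the dimmest 50% of genes 17 copies were tested, with medians of 1.19 in VE minus N and -0.40 in VE+N minus VE; fewer and brighter copies enter these by construction. Median centring shifted the median of all genes by -0.11 in VE minus N, with 18 copies called and a median of 0.84. With the replicate block 20, 19 and 8 copies were called, against 19, 18 and 8. With it H2ac1 and H2bc9 in VE minus N (adjusted p = 0.0342 and 0.0459) and H4c14 in VE+N minus N (0.0443) were called, and H2bc22 in VE minus N (0.0574) was not. Leaving out copies with a protein identical to another was not run, since no protein sequences were used here. Signal over background was not examined, and copies below the median gene are limited by it.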

Other observations

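Histone genes that lie outside the rule were read as well, chosen after their values were seen. H2aw, an H2A gene outside the H2ac series, had 8.02 and 7.73 log2 units in VE+N, 8.25 and 8.09 in VE and 7.35 and 7.45 in N. It was called higher in VE than in N (0.77 ± 0.127, limma adjusted p = 0.00477) and in VE+N than in N (0.47 ± 0.127, adjusted p = 0.0350). H4f16, an H4 gene outside the H4c series, had 7.20 and 7.14 in VE+N, 7.48 and 7.16 in VE and 7.03 and 7.02 in N, and was called in no comparison (0.29 in VE minus N, adjusted p = 0.175). H2bu2, an H2B gene outside the H2bc series, had 3.85 and 3.59 in VE+N, 4.11 and 4.18 in VE and 3.77 and 3.78 in N. It was called in no comparison. Its difference was 0.37 in VE minus N (limma adjusted p = 0.0705), -0.06 in VE+N minus N (0.809) and -0.43 in VE+N minus VE (0.0572). H1f6, the testis linker histone gene, averaged 3.86 ± 0.186 in VE+N, 3.91 ± 0.147 in VE and 3.89 ± 0.198 in N (SD, n = 2 each), so its means differed by less than the spread between arrays.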
